A study of Mus musculus with 15 samples.

Results

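Cd44, the integrin chains Itgal, Itga4, Itgb1, Itgb2 and Itgb7, and the homing receptors Selplg, Cxcr3 and Cx3cr1 were described in CD8+ T cells primed in vivo. These 9 genes were found by their symbols in the GENCODE M21 annotation, among 55536 annotated genes, and all 9 passed the filter on low counts. Donor cells came from OT-I transgenic mice (C57BL/6J), whose transgenic receptor sees an ovalbumin peptide, and were transferred into C57BL/6J recipients. All recipients received the peptide. The Ag group (5 libraries) got a rat control immunoglobulin with it per the study's methods, and the Ag+Costim group (5 libraries) got antibodies that activate OX40 (anti-CD134) and 41BB (anti-CD137), members of the TNF receptor family that costimulate T cells. The labels do not say whether the libraries of a group came from separate mice, while a figure legend of the study gives 5 mice per group for its deep RNA-seq. The p-values measure the spread between these libraries. The labels place collection from spleen and lymph nodes at day 4, whereas the study's methods give a somewhat shorter time. As limits of the model, every donor cell carried the same receptor, the methods describe the OT-I donors as Rag1- or Rag2-deficient, mice of both sexes were used, and the age behind each library is not given in the labels. Naive libraries were not analysed here.

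A T cell that has met antigen exchanges the receptors that keep it in lymph nodes for receptors that let it enter inflamed tissue. Selplg encodes PSGL-1, which slows the cell on selectins. The chemokine receptors CXCR3 and CX3CR1 then sense CXCL9 to CXCL11 and fractalkine, and the integrins arrest the cell: alpha L with beta 2 (LFA-1) on ICAM-1, alpha 4 with beta 1 (VLA-4) on VCAM-1 and fibronectin, and alpha 4 with beta 7 on MAdCAM-1. CD44 binds hyaluronan and is a long-used surface marker of antigen-experienced T cells. Its standard form lacks the block of variable exons that can be spliced into its stalk.

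The question was how far OX40 and 41BB costimulation altered the RNA of these receptors beyond antigen alone. Among the 9 members the clearest difference was that of Itgb1, a beta chain that pairs with alpha 4. Itgb1 was 1.55-fold higher in Ag+Costim libraries (edgeR, BH-adjusted p = 0.236). Its log2 fold change was 0.63, and 0.40 when libraries were scaled by total counts. Itgb7, the other beta chain of alpha 4, had a log2 fold change of 0.24, equal to the median of genes of 10 CPM or more (0.24). The geometric mean of the Itgb7 to Itgb1 ratio per kilobase was 1.29 in Ag and 0.974 in Ag+Costim (exact permutation p = 0.0159). Adjusted over the 3 within-library measures examined, this p was 0.0476 (BH). The ratio of Itgal to Itga4, examined in the same way, had a log2 difference of -0.22 (exact permutation p = 0.357). Ratios of further gene pairs were not examined for comparison. The RNA levels of Cd44, Itgal and Selplg differed by less than 1 standard error between the groups (log2 fold changes between -0.03 and 0.04). The variable exons of Cd44 were included at no more than 4.76% in either group by the splicing table, whereas transcripts with such an exon made up 23.3% of Cd44 in Ag and 28.4% in Ag+Costim by the transcript counts. In the edgeR test, adjusted by Benjamini-Hochberg (BH) over all genes, none of the 9 members passed, against 0 of 24262 genes (0%), and 1 member (Itgb1) had an unadjusted p under 0.05 in the higher direction, against 7.89% of genes (18.6% in either direction).

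The sequences behind the Cd44 result show what inclusion of a variable exon adds to the RNA. Cd44 lies on the minus strand of chr2:102811141-102901665 (mm10). The standard RNA joins the constant exon at chr2:102853015-102853236 to the constant exon at chr2:102828542-102828610, and 10 variable exons (v1 to v10, numbered along the transcript) lie between them, with 1245 bases in all. In the first pair of lines, lower case marks the last 30 bases of the upstream constant exon and capitals mark the first 30 bases of the exon joined to it, without a variable exon (transcript Cd44-203) or with v10 as the only one. The whole exons v7 (chr2:102837813-102837938) and v10 (chr2:102831330-102831536) follow because they had the highest inclusion in Ag+Costim libraries, with their first 30 bases in capitals. All are read 5′ to 3′ from the GENCODE M21 transcripts.
Standard junction: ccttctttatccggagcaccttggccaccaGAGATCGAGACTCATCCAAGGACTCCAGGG
Junction into v10: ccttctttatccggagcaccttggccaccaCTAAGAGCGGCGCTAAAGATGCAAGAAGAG
Exon v7: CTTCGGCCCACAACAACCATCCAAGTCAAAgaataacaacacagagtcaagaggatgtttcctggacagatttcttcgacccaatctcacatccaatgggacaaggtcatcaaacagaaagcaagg
Exon v10: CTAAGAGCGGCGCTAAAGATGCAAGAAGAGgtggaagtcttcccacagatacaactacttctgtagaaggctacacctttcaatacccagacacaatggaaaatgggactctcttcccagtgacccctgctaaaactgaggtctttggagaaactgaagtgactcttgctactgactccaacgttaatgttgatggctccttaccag

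Both groups held the labelled cell type by its markers, and the Ag libraries differed among themselves far more than the Ag+Costim libraries. Library totals ran from 59.6 to 449.4 M estimated counts in Ag and from 332.3 to 639.1 M in Ag+Costim. Genes with a count numbered 48058, 21779, 51778, 40441 and 20714 in Ag replicates 1 to 5 and 28727 to 30340 in Ag+Costim. The 8 CD8+ T cell markers summed to 3549 to 6995 CPM (counts scaled to a common library total with TMM factors) in Ag and 4737 to 5713 CPM in Ag+Costim. The 6 B cell markers summed to 643 to 1179 against 515 to 764 CPM, of which Ighm, a transcript also found in T cells, made up most. Cd79a, Ms4a1 and Pax5 were each highest in Ag replicates 1, 3 and 4. The 4 erythroid markers summed to 8.23 to 669 against 2.09 to 24.7 CPM, with the highest value in Ag replicate 3, the library with the lowest total. The ranges were 35.9 to 113 against 42.4 to 161 CPM for the 8 myeloid markers, 9.35 to 42.9 against 4.43 to 14.2 CPM for the 3 NK markers, 1.21 to 16.3 against 2.43 to 5.77 CPM for the 3 CD4 T cell markers, 0.0673 to 10.7 against 0.329 to 0.946 CPM for the 4 platelet markers, and 47.3 to 229.7 against 37.2 to 68.7 CPM for the 4 stromal and endothelial markers. Pax5 was at 0 in Ag replicates 2 and 5. The mean log2 CPM of 12 proliferation genes was 5.50 and 5.60 in Ag replicates 1 and 4, 7.92 to 8.74 in the other Ag libraries and 8.63 to 8.88 in Ag+Costim. Since these are sorted populations, fewer cells of a type and less RNA per cell cannot be told apart. The part of other cells, of proliferation or of the number of genes with a count in the results was not tested.

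Beta 1 is the common partner of the alpha chains that bind matrix and VCAM-1. Itgb1 (chr8:128685654-128733200, plus strand) measured 910.1, 2067, 1442, 1462 and 1600.2 CPM in Ag replicates 1 to 5 and 2174, 1982, 2507, 2571 and 2362 CPM in Ag+Costim replicates 1 to 5. The groups met at a single point, Ag replicate 2 above Ag+Costim replicate 2, while the other 4 Ag libraries lay below all 5 Ag+Costim libraries. The fitted log2 fold change was 0.63 with a standard error of 0.21 (edgeR, BH-adjusted p = 0.236). It was 0.40 by total counts and 0.42 by upper quartiles. The median of genes of 10 CPM or more was 0.24 by TMM, 0.00 by total counts and 0.02 by upper quartiles. DESeq2 gave 0.52 with an adjusted p of 0.0297 and called it, as it did 9.84% of the genes of 10 CPM or more in that direction. limma voom with a weight per library gave 0.86 with an adjusted p of 6.66e-04, in a fit that called 57.2% of such genes higher. With one weight per group limma gave an adjusted p of 0.131. Without Ag replicates 1, 3 and 4, the log2 fold change was 0.37 (edgeR adjusted p = 0.130). These were the libraries with low proliferation or most other-cell markers. They also had a count in the most genes (40441 to 51778, against 20714 and 21779 in Ag replicates 5 and 2).

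Scaled per transcript length (TPM, computed from the transcript counts), Itgb1 measured 530.0, 776, 701, 788 and 518 TPM in Ag and 886, 809.9, 1009.5, 1017 and 966 TPM in Ag+Costim. On this scale the groups did not overlap, as in 12.8% of genes of 10 CPM or more. The difference was 0.52 on the log2(TPM + 0.5) scale, and its exact permutation p of 0.0079 was the smallest that 5 against 5 libraries can give (two-sided, BH-adjusted over all genes 0.131).

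Beta 7 directs alpha 4 to the gut addressin. Itgb7 (chr15:102215995-102231944, minus strand) measured 1019.6, 1649, 1079, 1185 and 1783 CPM in the Ag libraries and 1588, 1532, 1579, 1579 and 1653 CPM in Ag+Costim. The 5 Ag+Costim libraries were nearly equal, with a coefficient of variation of 2.72% against 26.0% in Ag, and they lay inside the Ag range. The log2 fold change was 0.24 with a standard error of 0.19 (BH-adjusted p = 0.435). The Ag spread depended on the scaling: by total counts the Ag libraries lay between 1307 and 1496 CPM, with a coefficient of variation of 5.32%.

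A ratio within a library does not depend on the scaling between libraries, although its level depends on the length scaling. Per kilobase of transcript, log2(Itgb7/Itgb1) was 0.67, 0.18, 0.10, 0.21 and 0.66 in Ag replicates 1 to 5 and 0.05, 0.13, -0.16, -0.20 and -0.01 in Ag+Costim replicates 1 to 5. Per kilobase, every Ag library held more Itgb7 than Itgb1, and 3 of the 5 Ag+Costim libraries held less. In CPM, without length scaling, Ag replicates 2, 3 and 4 held less Itgb7 than Itgb1, as did all 5 Ag+Costim libraries. The log2 difference between the group means by counts was -0.40 (exact permutation p = 0.0159). The means were 0.36 ± 0.28 for Ag and -0.04 ± 0.14 for Ag+Costim (SD, n = 5), and the difference of -0.40 had a two-sided exact permutation p of 0.0159 over 252 assignments (BH-adjusted over the 3 within-library measures, 0.0476). The groups overlapped, since Ag+Costim replicate 2 (0.13) lay above Ag replicate 3 (0.10). Ag replicates 1 and 5 held the highest ratios, and their proliferation levels were 5.50 and 8.74. Without Ag replicates 1, 3 and 4, a choice made after seeing the data, the difference was -0.46. Its exact permutation p of 0.0476 is the smallest that 2 against 5 libraries allow. The part of proliferation or of other cells in the ratio was not tested.

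**Figure D1:**
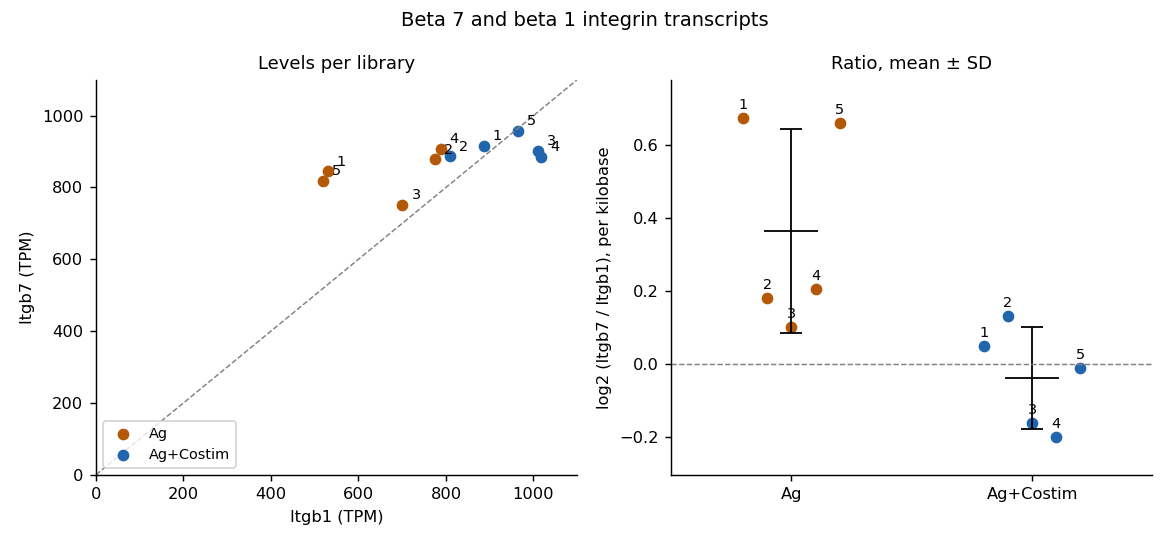
Left, Itgb7 against Itgb1 in TPM, 1 point per library numbered by replicate, with the dashed line at equal levels. Right, the log2 ratio per kilobase with mean and SD of 5 libraries, where all 5 Ag libraries lie above 0 and the means are 0.36 and -0.04. Where the values lie relative to 0 depends on the length scaling.

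Alpha 4 pairs with either of these chains. Itga4 (chr2:79255426-79333123, plus strand) measured 307, 554, 349.8, 352 and 325 CPM in the Ag libraries and 550.0, 502, 381, 428 and 497 CPM in Ag+Costim. All Ag+Costim libraries exceeded 4 of the 5 Ag libraries, and Ag replicate 2 exceeded them all. The log2 fold change was 0.32 ± 0.19 (SE, edgeR, BH-adjusted p = 0.332), and in TPM the difference was 0.14 (log2, exact permutation p = 0.683). Exons of Itga4 overlap those of Cerkl on the opposite strand, and the counting is not stated to use strand.

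Alpha L and beta 2 form LFA-1, the main leukocyte integrin for ICAM-1. Itgal (chr7:127296260-127335138, plus strand) measured 564, 486, 439, 749.9 and 415 CPM in the Ag libraries and 497, 545, 627, 469 and 597 CPM in Ag+Costim. The Ag+Costim values lay inside the Ag range, whose highest libraries, replicates 4 and 1, were those with the lowest proliferation level. The log2 fold change was 0.04 ± 0.19 (SE, edgeR, BH-adjusted p = 0.895). Its sign turned with the scaling (-0.28 by total counts). Itgb2 (chr10:77530252-77565708, plus strand) ranged from 572 to 991 CPM in the Ag libraries and from 744 to 996 CPM in Ag+Costim (log2 fold change 0.20 ± 0.19, BH-adjusted p = 0.511), and its sign also turned with total counts (-0.02). The log2 ratio of Itgal to Itga4 per kilobase was 0.80 ± 0.34 among Ag and 0.57 ± 0.39 among Ag+Costim libraries (SD, n = 5, exact permutation p = 0.357, BH-adjusted 0.357), and it ranged from 0.21 to 1.09 and from 0.04 to 1.11. The difference of -0.22 was -0.37 without Ag replicate 2, -0.36 without Ag+Costim replicate 3 and -0.091 without Ag+Costim replicate 1.

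Selplg (chr5:113818536-113832644, minus strand) measured 1091, 1590.0, 922, 1195 and 1809 CPM in the Ag libraries and 1410.1, 1317, 1292, 1187 and 1309.8 CPM in Ag+Costim. Ag values spread to either side of the narrower Ag+Costim group, and the log2 fold change was -0.02 ± 0.20 (SE, edgeR, BH-adjusted p = 0.957). With Ag replicates 1, 3 and 4 left out, Selplg was lower in Ag+Costim (log2 fold change -0.35, edgeR adjusted p = 0.0316), in a fit of 2 against 5 libraries that called 844 of 25394 genes lower (3.32%). It was the only one of the 9 members called there.

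Among the chemokine receptors, Cxcr3 (chrX:101731535-101734269, minus strand) measured 284, 688, 403, 361 and 772 CPM in the Ag libraries and 669.9, 563, 618, 528 and 653 CPM in Ag+Costim. Ag replicates 1, 3 and 4 lay below the whole Ag+Costim group and Ag replicates 2 and 5 above it. The log2 fold change was 0.27 ± 0.27 (SE, edgeR, BH-adjusted p = 0.527), and without Ag replicates 1 and 4 it was -0.02. Cx3cr1 (chr9:119901616-120069879, minus strand), a receptor of cytotoxic effector cells, was scarce, at 0.901, 3.98, 3.79, 2.54 and 8.64 CPM in the Ag libraries and 5.90, 3.94, 3.53, 5.47 and 5.53 CPM in Ag+Costim. The Ag libraries enclosed the Ag+Costim libraries (log2 fold change 0.30 ± 0.48, SE, BH-adjusted p = 0.701). The value rested on single Ag libraries, being 0.043 without replicate 1, 0.18 without replicate 4 and 0.82 without replicate 5. An exon of Gm33858 lies opposite it.

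Cd44 itself was at 47.3, 92.1, 48.5, 55.2 and 51.7 CPM in the Ag libraries and 59.5, 61.3, 56.7, 47.5 and 64.2 CPM in Ag+Costim. Ag replicate 2 stood above all others, and 4 of the 5 Ag libraries lay within 47.3 to 55.2 CPM. The log2 fold change was -0.03 ± 0.20 (SE, edgeR, BH-adjusted p = 0.937) and was 0.21 without that library (edgeR adjusted p = 0.283).

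**Figure D2:**
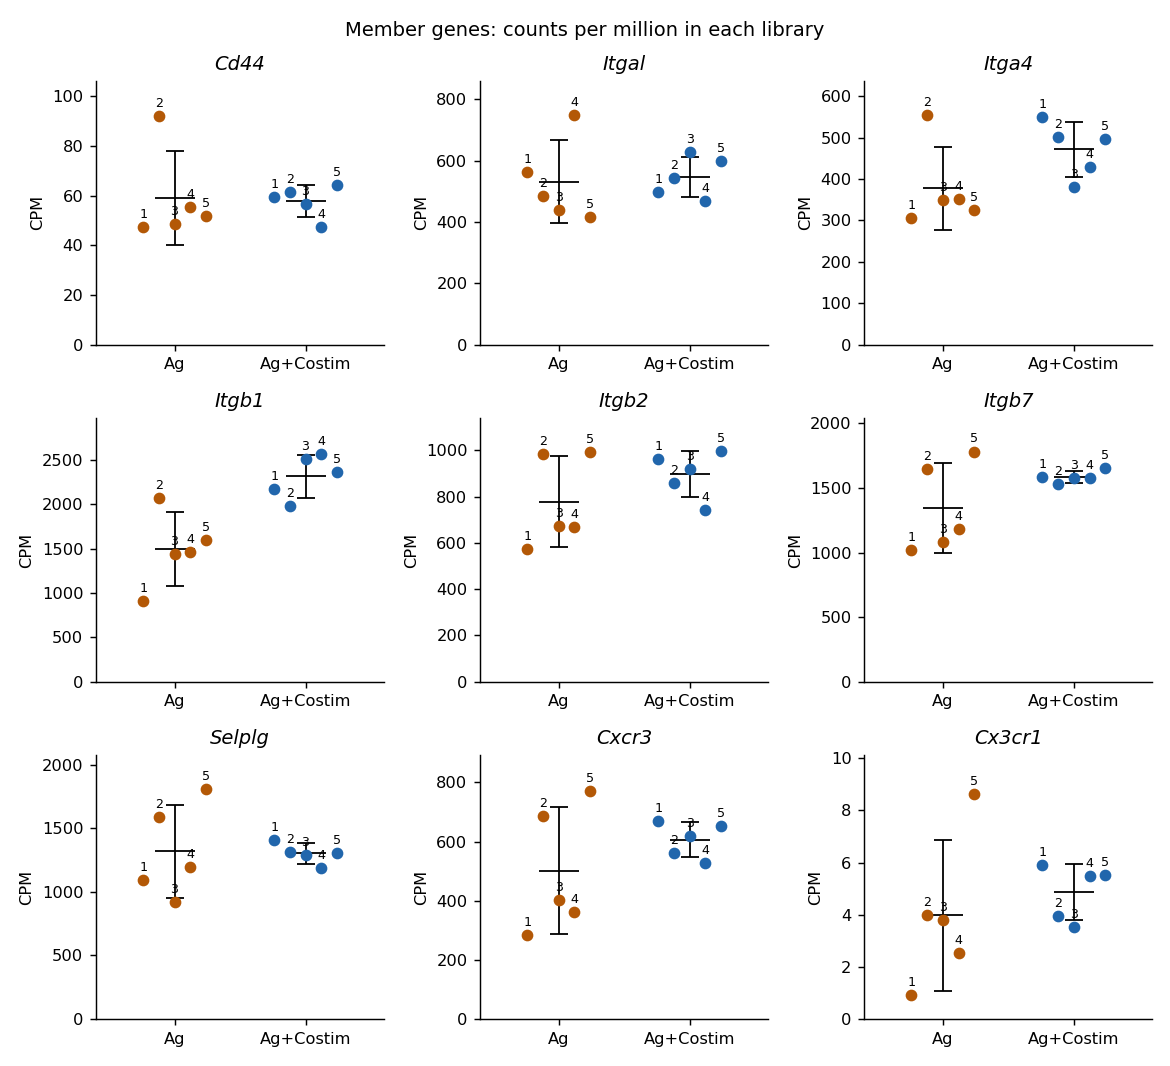
CPM (TMM scaling, linear axis from 0) of the 9 members in each library, numbered by replicate, with mean and SD of 5 libraries per group in black. For Itgb1, Ag replicate 2 (2067) is the single Ag library above an Ag+Costim library, and for Itgb7 the 5 Ag+Costim libraries lie between 1532 and 1653.

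All 9 members varied more in Ag than in Ag+Costim by TMM scaling, with coefficients of variation of 25.2% to 72.7% against 2.72% to 21.8%. For genes of 10 CPM or more the medians were 32.2% and 8.54%, so the members shared this with most genes. By total counts it held for 8 of the 9, the exception being Itgb2 (4.35% in Ag and 12.2% in Ag+Costim). The groups overlapped for all 9 members under each of 4 CPM scalings, whereas among genes of 10 CPM or more the Ag+Costim libraries lay wholly above the Ag libraries in 11.3% by TMM, 7.28% by total counts, 7.32% by the factors of DESeq2 and 3.73% by upper quartiles. DESeq2 called 1 of the 9 (Itgb1, higher), against 9.84% of genes of 10 CPM or more called higher. Of all 36117 genes with an adjusted p it called 22.3%, namely 930 higher and 7116 lower. limma voom with a weight per library called 6 higher (Itga4, Itgb1, Itgb2, Itgb7, Cxcr3 and Cx3cr1), against 25.4% of all genes and 57.2% of genes of 10 CPM or more called higher, in a fit that gave Ag replicates 2 and 5 weights of 0.0985 and 0.0654 and the other Ag libraries 0.508 to 1.86. With one weight per group it called none (0%).

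**Figure D3:**
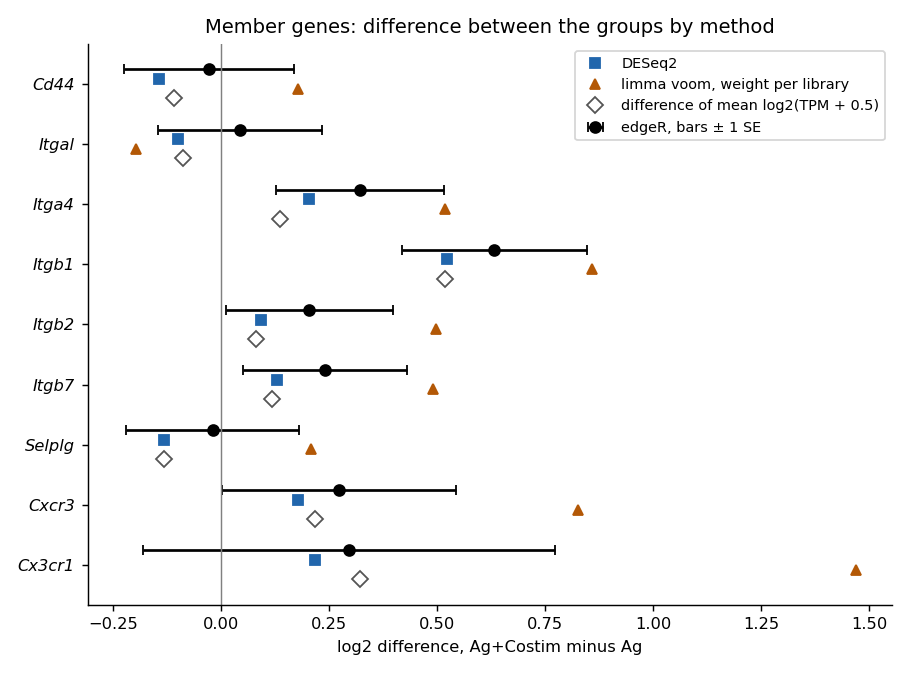
Difference between the groups for each member (log2, Ag+Costim minus Ag) by edgeR with its standard error, DESeq2, limma voom with a weight per library, and TPM. Itgb1 lies right of 0 by all 4 measures (0.52 to 0.86), while Cd44, Itgal and Selplg have measures on both sides of 0.

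Per transcript length, the order of levels was Selplg, Itgb1, Itgb7, Cxcr3, Itgb2, Itgal, Itga4, Cd44 and Cx3cr1 in Ag+Costim. Selplg was at 1083 ± 76.8 TPM, Itgb1 at 938 ± 88.3, Itgb7 at 910.1 ± 29.8, Cxcr3 at 536 ± 57.5 and Itgb2 at 469 ± 56.6 (SD, n = 5). Itgb1 and Itgb7 were not separated by their spread, nor were Cxcr3 and Itgb2. Both alpha chains were scarcer, with Itgal at 162 ± 19.9 and Itga4 at 111 ± 24.2 TPM, Cd44 was at 28.8 ± 3.78 TPM and Cx3cr1 at 1.96 ± 0.441 TPM. In Ag, Itgb7 (841 ± 60.2 TPM) stood above Itgb1 (662 ± 131 TPM), and the other members kept their places.

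The PSI table gives the percent spliced in, the share of a gene's RNA that includes an exon or end, as 1 value per group without a replicate check. It held 138 events in 7 members and none in Selplg or Cxcr3. No member event passed the study's thresholds (probability over 0.9 and a PSI difference over 0.05), which 1.05% of all 138940 events did, and the largest difference among the members was 0.0332. That event was a 3′ end of Cd44, with PSI 0.672 in Ag and 0.706 in Ag+Costim. The most distal end of Cd44 was used at 0.130 and 0.134.

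The Cd44 variable exons were included at 0.454% to 3.05% in Ag and 0.257% to 4.76% in Ag+Costim, whereas 7 constant exons were at 99.7% to 99.9%. Exon v10 was the highest (3.05% in Ag, 4.76% in Ag+Costim), and v7 was at 1.19% and 1.83%. Among the exons lower in Ag+Costim, v9 (1.59% and 0.452%) and v2 (1.11% and 0.257%) differed most, by -1.14 and -0.852 percentage points. In all, 3 variable exons had a higher and 7 a lower PSI in Ag+Costim, and 6 were under 1% in both groups. All 10 have lengths divisible by 3, between 90 and 207 bases, so inclusion of any of them leaves the reading frame as it is.

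The transcript counts gave a different picture of the same exons. Cd44-203, the standard form, held 60.6% to 73.5% of Cd44 counts over the 10 libraries. Cd44-201, which contains all 10 variable exons, held 25.5% to 33.3% in 9 libraries and 0.290% in Ag replicate 3, where Cd44-207 held 25.8%. Per kilobase, and among the transcripts that span the region, those with at least 1 variable exon made up 30.6%, 26.9%, 16.7%, 19.4% and 23.0% of Cd44 in Ag and 30.5%, 31.2%, 30.6%, 24.6% and 25.2% in Ag+Costim. The groups overlapped, with means of 23.3% ± 5.60 and 28.4% ± 3.23 (SD, n = 5, exact permutation p = 0.143, BH-adjusted 0.214). The difference was 5.10 percentage points per kilobase and 2.89 by counts without the length scaling (exact permutation p = 0.222). All transcripts with counts that hold a variable exon include v10, so this share equals that of v10.

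The annotation ties both features together. Cd44-201 and Cd44-207 alone carry the longest last exon (3197 bases), and that end took 16.2% ± 2.09 of Cd44 per kilobase in Ag and 15.6% ± 0.791 in Ag+Costim. Exons v1 to v4 and v7, carried by Cd44-201 alone among the transcripts with counts, took 12.8% ± 7.38 and 15.6% ± 0.790. The PSI of the most distal end (0.130 and 0.134) was near these shares and the PSI of the variable exons was not. Which reads were assigned to Cd44-201 was not tested.

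**Figure D4:**
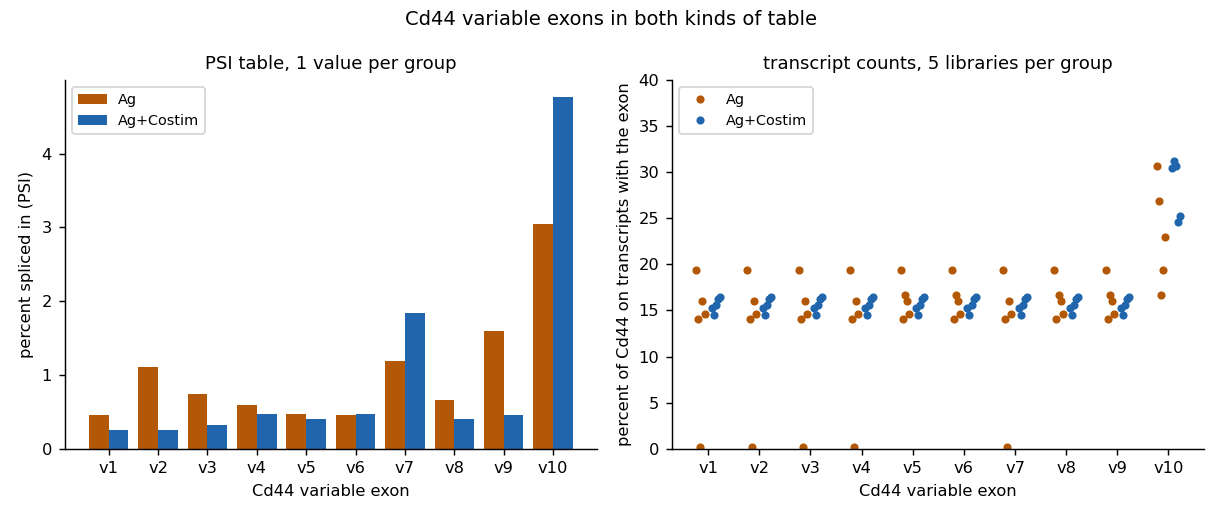
Cd44 variable exons v1 to v10. Left, PSI in percent, 1 bar per group, at most 4.76%. Right, the share of Cd44 per kilobase on transcripts with that exon, 1 point per library, mostly 14.0% to 19.4% for v1 to v9 (Ag replicate 3 at 0.167% for v1), on a different vertical scale.

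No member was called for transcript usage, in an edgeR test that called 31 of 10441 genes (0.297%). The BH-adjusted p was 1 for each of the 8 members with more than 1 transcript. A single transcript dominated Itgb1 (Itgb1-201, 97.5% ± 1.58 in Ag and 96.8% ± 0.447 in Ag+Costim), Itgb2 (98.7% and 98.8%), Itgb7 (99.8% and 99.9%) and Selplg (99.0% and 99.3%). Itgal-202 held 79.6% ± 7.01 and 83.3% ± 4.35 of Itgal, and Itgal-201 16.1% ± 5.68 and 11.9% ± 2.15. Itga4-201 held 82.2% ± 9.32 and 84.3% ± 4.05 of Itga4 counts, with the non-coding Itga4-202 at 7.70% ± 4.44 and 6.94% ± 2.24 and Itga4-205 at 5.90% ± 3.23 and 5.32% ± 1.40. Cx3cr1-201 held 76.2% ± 43.3 in Ag, where replicate 3 had none of it and 78.1% on Cx3cr1-203, and 92.1% ± 6.73 in Ag+Costim. In the PSI table, core exons of the 5 integrins had a PSI of 0.933 or more in both groups.

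Further lists place the members in their pathway, each read beside the median log2 fold change of all genes tested (-0.32) and of genes of 10 CPM or more (0.24). For the 9 members the median was 0.24, with 7 above 0 and 2 below. By total counts the median of genes of 10 CPM or more was 0.00 and that of the members 0.01, with 5 above 0. The member median was 0.12 by the factors of DESeq2 and 0.03 by upper quartiles, so it stayed above 0 under the 4 scalings and its size depended on them. None of the genes of these lists was called by edgeR, and groups did not overlap for 11.3% of genes of 10 CPM or more in the higher direction and 0.22% in the lower.

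The list of integrin activation and adhesion machinery, which is not limited to activators, had 16 of 20 genes with a log2 fold change above 0 by TMM. By total counts it had 9 of 20 (median 0.21 by TMM and -0.07 by total counts). Groups did not overlap for 3. Rasgrp2, the exchange factor that activates Rap1, was at 309 ± 60.5 CPM in the Ag libraries and 499 ± 19.4 CPM in Ag+Costim (log2 fold change 0.69, edgeR BH-adjusted p = 0.153). Adam17, a protease that sheds surface proteins, was at 91.2 ± 17.8 and 139 ± 12.7 CPM (0.61, BH-adjusted p = 0.172), and the GTPase gene Rap1a at 179 ± 32.0 and 241 ± 11.8 CPM (0.43, BH-adjusted p = 0.241). DESeq2 gave adjusted p of 7.69e-06 for Rasgrp2, 0.00662 for Adam17 and 0.0301 for Rap1a. Of these, Rasgrp2 alone kept its groups apart under each of the 4 CPM scalings. Tln1 (talin, which binds beta tails) was at 389 ± 88.4 and 558 ± 59.9 CPM and Fermt3 (kindlin-3) at 397 ± 69.2 and 463 ± 28.0 CPM, both with overlap.

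CD44 is linked to the cortex by ezrin, radixin and moesin. In the list of these 3 and of further CD44 partners, 9 of 10 genes were above 0 by TMM and 5 of 10 by total counts (median 0.38 and 0.07). Msn was at 1178 ± 119 and 1580.2 ± 82.0 CPM (log2 fold change 0.42, edgeR BH-adjusted p = 0.231) and Rdx at 102 ± 33.1 and 158 ± 16.9 CPM (0.64, BH-adjusted p = 0.242), both without overlap by TMM but with overlap by total counts. DESeq2 gave adjusted p of 0.0249 for Msn and 0.0472 for Rdx.

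PSGL-1 binds selectins only when decorated with sugars and sulfate. In that list 9 of 14 genes were above 0 (6 by total counts), with a median of 0.15 by TMM and -0.07 by total counts. B4galt5, a galactosyltransferase, was at 29.0 ± 8.17 CPM in the Ag libraries and 56.2 ± 6.50 CPM in Ag+Costim (log2 fold change 0.95, edgeR BH-adjusted p = 0.142, DESeq2 adjusted p = 6.22e-04), without overlap under any of the 4 CPM scalings. Fut7, the fucosyltransferase of selectin ligands, was at 22.7 ± 10.5 and 22.6 ± 7.57 CPM. Gcnt1, which starts the branched glycan, was at 5.85 ± 1.77 and 4.52 ± 2.71 CPM.

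Other homing receptors had 8 of 19 genes above 0 by TMM and 4 by total counts (median -0.40 and -0.72), none without overlap. Ccr7, the chemokine receptor for lymph node entry, was at 447 ± 156 and 293 ± 40.9 CPM (-0.61, edgeR, BH-adjusted p = 0.260). Its Ag values were 577, 410, 246, 629 and 373 CPM in replicates 1 to 5, against 243 to 330 CPM in Ag+Costim. DESeq2 gave an adjusted p of 0.0370 for Ccr7, in a fit that called 7116 of 36117 genes lower. S1pr1, the exit receptor, was at 344 ± 59.4 and 356 ± 31.4 CPM, and Klf2, which drives it, at 148 ± 24.1 and 167 ± 49.6 CPM.

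Among the other integrin chains, 4 of 20 tested genes were above 0 by TMM and by total counts (median -0.73 and -1.17), 5 of the 21 listed reached 10 CPM and none was without overlap. Itgae, another alpha chain that pairs with beta 7, was at 21.2, 0.334, 4.70, 22.3 and 2.49 CPM in the Ag libraries and at 1.76, 1.84, 2.07, 1.49 and 2.46 CPM in Ag+Costim. It was high in Ag replicates 1 and 4 alone (log2 fold change -2.41 ± 0.86, SE, edgeR BH-adjusted p = 0.245, DESeq2 adjusted p = 0.0190). That DESeq2 fit called 7116 of 36117 genes lower. Ligands of the members, which T cells mostly do not make, had 4 of 15 genes above 0 by TMM and 3 by total counts (median -1.39 and -1.83), with 3 of the 16 listed at 10 CPM or more.

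The list of factors reported to act on Cd44 variable exons had 8 of 11 genes above 0 by TMM and 7 by total counts (median 0.49 and 0.28), 3 without overlap. Tra2b was at 203 ± 75.9 CPM in the Ag libraries and 425 ± 52.4 CPM in Ag+Costim (log2 fold change 1.06, edgeR BH-adjusted p = 0.152, DESeq2 adjusted p = 5.97e-04). Srrm1 was at 136 ± 31.3 and 201 ± 8.88 CPM (0.57, BH-adjusted p = 0.204) and Hnrnpm at 399 ± 130.2 and 662 ± 70.8 CPM (0.73, BH-adjusted p = 0.221). DESeq2 gave adjusted p of 0.00931 for Srrm1 and 0.0197 for Hnrnpm. Tra2b and Srrm1 kept their groups apart under each of the 4 CPM scalings. The 12 proliferation genes were all above 0 (median 0.87), with Mki67, Top2a and Tpx2 without overlap by TMM, and Mki67 at 93.4 and 98.3 CPM in Ag replicates 1 and 4 and 222 to 469 CPM in the other 8 libraries.

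**Figure D5:**
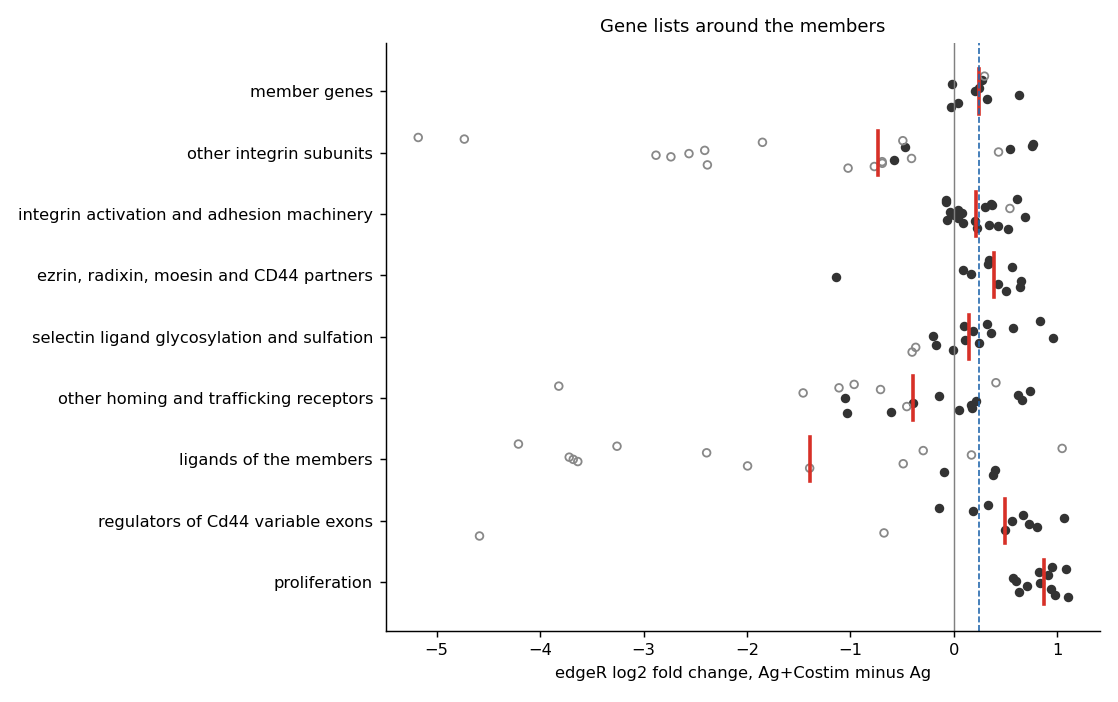
edgeR log2 fold change (Ag+Costim minus Ag, TMM scaling) of each tested gene in each list. Filled points have a mean of 10 CPM or more, open points less, red bars are list medians and the dashed line is the median of all genes of 10 CPM or more (0.24). The member median lies on that line and the proliferation list to its right (0.87).

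Across the 10 libraries, the genes whose log2 CPM followed Cd44 most closely were Tnfrsf1a (Pearson r = 0.932), 1110051M20Rik (0.883), Slc10a3 (0.883) and Vkorc1 (0.882). Cxcr3 was followed by Necap2 (0.990), Sptlc2 (0.984), Pdcl (0.983) and Nsdhl (0.983). Among the members, Cxcr3 moved with Itgb2 (r = 0.975) and Itgb7 (0.958), and Itgal had correlations between -0.38 and 0.08 with the other members of 10 CPM or more. These values are descriptions over 10 libraries that share scaling factors and groups.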

How the data were processed

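Gene and transcript tables of 10 libraries, 5 Ag and 5 Ag+Costim, were used. RNA was amplified with SMART-Seq v4. Per the submitters' processing notes the tools were HISAT2 2.1.0, SAMtools 1.9, StringTie 2.1.0, R 4.0.5 and DESeq2 1.30.1, with genome build mm10. The authors aligned reads with HISAT2 and obtained estimated counts with StringTie, deposited without normalization, so that totals are not numbers of reads. Whether counting used strand is not given in the sources used here. The authors ran Whippet, and their deposited table holds PSI as 1 fraction per group, with the columns A and B taken as Ag and Ag+Costim. The same deposited table holds scores, namely the authors' difference of PSI (not used), an entropy (not used) and a probability, used only to apply the study's thresholds. No sample column was left unused in the tables, and Naive libraries were not analysed here.

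All 55536 gene and 141862 transcript identifiers matched GENCODE M21. Entries with a bare number as identifier (26248, holding 0.0458% to 0.308% of counts) and 97 further entries without counts were left out. Counts were tested with edgeR 4.0.16 in R 4.3.3 (quasi-likelihood, filterByExpr, TMM, robust dispersions, BH over 24262 genes, threshold 0.05). TMM factors ran from 0.826 to 1.40 in Ag and 0.888 to 0.930 in Ag+Costim. DESeq2 1.42.0, limma 3.58.1 and exact permutation tests over the 252 assignments of 5 against 5 libraries were run beside it. The planned fit was to hold 15 libraries and held 10. Transcript usage was tested with edgeR's diffSpliceDGE (Simes BH under 0.05 and a share change over 0.1, as a fraction). TPM was computed from transcript counts and annotated lengths, and the analyses of TPM and of libraries left out together were chosen after seeing the data. Ratios had 1 count added. The programs were tested on simulated data.

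All 9 members are named, and from each other list up to 4 genes of at least 10 CPM in the higher group without overlap, by size of fold change, plus Ccr7, S1pr1, Klf2, Itgae, Fut7, Gcnt1, Tln1 and Fermt3, transcripts of at least 5% and every core exon of Cd44. A few genes that the rule or the marker lists include are not reported here. Members and lists were chosen with earlier results of these data known. Precision was judged from the spread between the 5 libraries of a group. Estimated counts are not numbers of reads, so their own counting error cannot be read from them.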

Additional observations from a re-analysis of the deposited data

Results flagged for a closer look

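In 9 of 56 groups of 5 libraries examined, 1 library lay far from the other 4 by Dixon's criterion, which chance meets in about 1 in 20 independent groups. The 56 groups are not independent, since transcript shares of a gene, or a ratio and its genes, move together. The count of 9 can therefore not be set against that rate. No explanation was tested. Ag replicate 2 had the highest Cd44 level (92.1 CPM, the other Ag libraries 47.3 to 55.2), the highest Itga4 level (554 CPM, the others 307 to 352) and the lowest log2 ratio of Itgal to Itga4 (0.21).

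Ag replicate 3, the library with the lowest total, stood apart in its transcripts. Its share of Cd44-201 was 0.290% and of Cd44-207 25.8%, and its share of Cx3cr1-201 was 0% and of Cx3cr1-203 78.1%. In Ag+Costim, replicate 5 had a higher share of Itgal-202 (90.7%) and replicate 4 a higher share of Itgb7-201 (99.9%) than the others.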

How the results depend on the processing

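The edgeR count of genes called was 0 (4501 at an unadjusted p under 0.05) and stayed 0 under its other scalings, filters, dispersions and each library left out. DESeq2 called 8046, limma voom with a weight per library 12333, and edgeR without Ag replicates 1, 3 and 4 called 2752, a choice made after seeing the data. The cause was not tested. Transcript usage called 31 genes, 19 with at least 50 counts, 145 with limma's diffSplice and 33 to 92 with a library left out. For Itga4 and Itgb1 the log2 fold change kept its sign in all alternatives run (0.05 to 0.65 and 0.37 to 0.98). Cd44 turned to 0.012 in the permutation test, 0.18 with voom per library and 0.29 without a filter (range -0.095 to 0.21 with a library left out). Itgal turned to -0.10 in DESeq2, -0.11 with its size factors, -0.20 with voom per library, -0.28 at 10 CPM or more, -0.28 with total counts, -0.21 with upper quartile and -0.088 in TPM (range -0.015 to 0.21). Itgb2 turned to -0.037 at 10 CPM or more, -0.023 with total counts, -0.011 with upper quartile and -0.11 without Ag replicates 1, 3 and 4, where Itgb7 was -0.081, Cxcr3 -0.23 and Cx3cr1 -0.33. Without Ag replicates 1 and 4, Cxcr3 was -0.025 and Cx3cr1 -0.16. Selplg turned to 0.022 in the permutation test, 0.0080 with voom per group, 0.21 with voom per library and 0.27 without a filter (range -0.12 to 0.14). The ratio of Itgb7 to Itgb1 differed by -0.47 to -0.32 with a library left out (exact permutation p 0.0079 to 0.0476), that of Itgal to Itga4 by -0.37 to -0.091 and the share of Cd44 with a variable exon by 3.44 to 6.92 points. Ranges for the other members were 0.26 to 0.53 for Itga4, 0.50 to 0.80 for Itgb1, 0.11 to 0.32 for Itgb2, 0.16 to 0.38 for Itgb7, 0.13 to 0.50 for Cxcr3 and 0.043 to 0.82 for Cx3cr1.

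Same-numbered libraries did not deviate together (correlations -0.29 to 0.17, and no library correlated best with its own number). Such correlations cannot exclude a pairing, and the main tests left the libraries unpaired. With the replicate block the Itgb7 to Itgb1 difference was -0.40 with an exact sign-flip p of 0.0625, the smallest that 5 pairs allow, the log2 fold change of Cd44 was 0.014 and that of Selplg 0.022, and edgeR called 0 genes. PSI had 1 value per group and could not be paired.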
